A study of Homo sapiens with 8 samples.

Results

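Small leucine-rich proteoglycans (SLRPs) are secreted matrix proteins with a core of leucine-rich repeats, and the 8 genes followed here were DCN, BGN, LUM, FMOD, OGN, PRELP, ASPN and PODN. They were taken from the count table by gene symbol. Of the 8 symbols, 7 had a row among the 27696 genes of the count table, and 6 passed the filter on low counts together with 13798 genes in all. OGN was not among the rows used and only its promoter is described, and ASPN had between 0 and 9 counts in every library and was not tested.

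SLRPs coat collagen fibrils and set their diameter and spacing. Several of them also bind TGF-β and other growth factors, and cell surface receptors, and so couple the matrix to signalling. In connective tissue, DCN (decorin) and BGN (biglycan) carry chondroitin or dermatan sulfate chains, whereas LUM (lumican) and FMOD (fibromodulin) carry keratan sulfate. PRELP binds collagen and heparan sulfate, ASPN (asporin) has a run of aspartates near its start, and PODN (podocan) belongs to a further class of the family.

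The recipient cells were IMR90 fibroblasts, a human lung fibroblast strain, which spent 3 days in the conditioned medium of IMR90 ER:RAS fibroblasts. The donor cells carry an ER:RAS fusion that 4-hydroxytamoxifen (4-OHT) switches on, which drives them into oncogene-induced senescence, and the medium was taken on day 0, 4, 7 or 10 of 4-OHT. The day of the medium names the recipient groups (D0, D4, D7 and D10), and D0 is the control that received medium from donors at the start of induction. Each group held 1 library from each of 2 independent experiments, so 8 poly(A)-selected libraries of 1 cell strain were compared. In the fit by group, the p-values measure the spread between the 2 libraries of a group, that is, between these experiments. In the paired fit, which takes the experiment as a replicate block, they measure the spread left after the mean difference between experiments is removed.

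Total counts ranged from 11708193 to 13395912 per library. Levels are given as CPM, that is, counts divided by the TMM-scaled library size and given per 1000000. Across genes, libraries of the same experiment deviated together from the mean of their group (r from 0.42 to 0.72 over 6 pairs of groups), so the experiment pairs the libraries. The cells carried fibroblast markers in every library, at a lower sum in 1 of them. Of 10 fibroblast markers, 9 had at least 100 counts in every library, and the 8 that are not SLRPs summed to between 26881 and 38912 CPM in 7 libraries and to 8836 CPM in D10 of experiment 2. COL1A1, COL1A2 and VIM made up most of these sums. Mean CPM at D0 and D10 was 65.1 and 77.8 for FAP, 510 and 485 for PDGFRA, and 459 and 178 for PDGFRB. It was 1186 and 864 for THY1, and 4.21 and 2.73 for S100A4. Epithelial and leukocyte markers summed to between 1.10 and 4.11 CPM in every library. Smooth muscle and pericyte markers summed to 1302 and 1025 CPM at D0 and to 535 and 354 CPM at D10 in experiments 1 and 2. Endothelial markers summed to between 43.2 and 123 CPM, of which TEK made up most, and chondrocyte and tendon markers to between 46.9 and 122 CPM, most of it SOX9. The part of these markers in the results for the SLRPs was not tested.

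DCN and BGN differ from LUM in the kind of chain they carry, and the known attachment sites of DCN and BGN can be located in the coding sequence. Chondroitin and dermatan sulfate are attached to a serine that is followed by a glycine. The first 180 coding bases of DCN, BGN and LUM are given here as the 3 members with the highest levels, with codons of a serine followed by a glycine in capitals. They were read from the GENCODE 29 transcript with the longest coding sequence.
DCN: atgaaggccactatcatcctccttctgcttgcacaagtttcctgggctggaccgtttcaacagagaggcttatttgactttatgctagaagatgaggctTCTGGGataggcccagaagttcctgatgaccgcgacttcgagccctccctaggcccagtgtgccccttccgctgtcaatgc
BGN: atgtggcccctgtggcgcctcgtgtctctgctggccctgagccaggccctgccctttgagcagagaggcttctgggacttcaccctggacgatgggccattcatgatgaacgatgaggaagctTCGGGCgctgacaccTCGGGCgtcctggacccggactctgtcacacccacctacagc
LUM: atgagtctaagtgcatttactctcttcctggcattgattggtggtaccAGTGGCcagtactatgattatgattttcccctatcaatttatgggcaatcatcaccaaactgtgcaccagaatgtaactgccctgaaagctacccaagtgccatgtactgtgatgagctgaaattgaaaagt
DCN had 1 such pair in this stretch, at codon 34, and BGN had 2, at codons 42 and 47, counted from the start codon. These are the known attachment sites of the single chain of decorin and the paired chains of biglycan. The pair of LUM lay at codon 17, within the secretion signal. Over the whole coding sequences of 359, 368 and 338 codons, DCN held 3 pairs, BGN 5 and LUM 3, while FMOD and PRELP held 0.

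The genes lie in clusters on GRCh38, with positions from GENCODE 29. DCN (chr12:91140484-91183123, minus strand) and LUM (chr12:91102629-91111831, minus strand) are neighbours 28.7 kb apart. FMOD (chr1:203340628-203351758, minus strand) and PRELP (chr1:203475828-203491352, plus strand) lie 124 kb apart. ASPN (chr9:92456205-92482506, minus strand) sits next to the related gene ECM2 at a distance of 11 kb, and BGN (chrX:153494939-153509554, plus strand) and PODN (chr1:53062052-53085502, plus strand) stand alone. Of the exon bases of PODN, 15.2% are overlapped on the opposite strand by AL445183.1 and HIGD1AP11, which had at most 2 counts in any library. At most 1.46% of the 50-base words of any of the 7 genes occur in another gene, so that shared sequence could move few of their counts.

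RefSeq (GRCh38.p14) gave promoter stretches for 6 of the 8 members, in 7 entries, each of 250 bases before a start. The BGN and PODN stretches, of members with over 200 counts in every library, and that of ASPN, which was near the limit of detection, are shown for their base composition, with CG in capitals and cut where the GENCODE gene begins.
BGN, chrX:153494730-153494938, plus strand: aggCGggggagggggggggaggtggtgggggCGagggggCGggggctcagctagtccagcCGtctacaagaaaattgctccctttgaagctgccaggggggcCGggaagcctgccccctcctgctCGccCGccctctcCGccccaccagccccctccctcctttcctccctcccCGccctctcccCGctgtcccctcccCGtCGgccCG
PODN, chr1:53061963-53062051, plus strand: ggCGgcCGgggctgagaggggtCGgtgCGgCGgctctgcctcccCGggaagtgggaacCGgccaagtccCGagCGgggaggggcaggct
ASPN, chr9:92482507-92482756, minus strand: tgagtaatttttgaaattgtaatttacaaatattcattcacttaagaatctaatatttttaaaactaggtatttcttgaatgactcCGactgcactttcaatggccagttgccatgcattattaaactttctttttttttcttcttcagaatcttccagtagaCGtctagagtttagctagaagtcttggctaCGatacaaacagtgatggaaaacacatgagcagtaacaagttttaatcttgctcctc
Over the 250 bases, GC content was 74.0% in BGN and 72.4% in PODN, against a median of 58.0% over all 35116 entries, and 32.4% in ASPN. The CG pair occurred 16, 23 and 3 times over the 250 bases, with a median of 11 over all entries. For BGN and PODN these counts include bases past the part shown, which is 209 and 89 bases long. FMOD had 51.6% GC, PRELP 52.8%, and the entries of OGN 36.0% and 31.2%. The FMOD entry (chr1:203351123-203351372) lies before a RefSeq start but wholly within the GENCODE gene. Both strands were searched for the AP-1 motif TGANTCA, which 6.57% of all entries hold, the SMAD motif CAGACA (13.6%), TATAAA (10.7%) and CCAAT (32%). FMOD held TATAAA 177 bases and CCAAT 219 bases before the start, PRELP held CCAAT 31 bases before it, and the OGN entries held TATAAA. These letters did not occur in the stretches of BGN, PODN and ASPN.

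DCN was by far the most abundant SLRP of these fibroblasts. Per kilobase of exon, the level at D0 was 309 ± 41.1 CPM (SD, n = 2) for DCN, 114 ± 47.2 for LUM, 63.4 ± 3.54 for BGN and 25.1 ± 6.92 for PODN. FMOD followed at 1.18 ± 0.239, PRELP at 0.178 ± 0.0369 and ASPN at 0.0464 ± 0.0177 CPM per kilobase. At D0 the ranges of neighbours in this order did not overlap. The order of LUM and BGN was not the same in every library, since in D7 of experiment 2 LUM stood at 55.3 and BGN at 70.6 CPM per kilobase. The exon length of DCN pooled over its transcripts is 12847 bases against 7156 for its longest transcript, so its level per kilobase would be higher with the latter.

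DCN, the proteoglycan that binds collagen fibrils and TGF-β, was lower with each later medium in both experiments. In experiment 1 it stood at 4340 CPM at D0, 3018 (D4), 2420 (D7) and 2138 (D10). In experiment 2 it stood at 3593, 2236, 1661 and 572 CPM. All 6 libraries that received medium of induced donors were below both D0 libraries. The log2 change within the experiment was -0.52 and -0.68 with D4 medium, -0.84 and -1.11 with D7 medium and -1.02 and -2.65 with D10 medium in experiments 1 and 2. Fitted by group with edgeR's quasi-likelihood test, the log2 fold change was -0.59 ± 0.57 (SE) (D4), -0.96 ± 0.57 (D7) and -1.55 ± 0.58 (D10), with adjusted p of 1, 1 and 0.484. With the experiment as a replicate block, the D10 change was -1.75 ± 0.38 and passed the threshold at an adjusted p of 0.0362, while those at D4 (0.801) and D7 (0.361) did not. DESeq2 gave an adjusted p of 0.0991 at D10.

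The D10 value of DCN depended on the library of experiment 2, which stood apart in some matrix genes and in its mitochondrial share. In that library COL1A1, the main chain of type I collagen, was at 1295 CPM against between 8694 and 14499 CPM in the other 7. Mitochondrial genes took 1.22% of its counts, against between 2.18% and 3.60% in the others. BGN, at 107 CPM against 111 in D10 of experiment 1, and MMP2, at 1207 against 1046, were not lower to a like extent. The cause was not tested. Without this library, D10 rests on 1 library, and the paired fit gave DCN a log2 fold change of -1.09 at D10 and of -0.98 at D7. The paired D10 call was kept when either D10 library was left out and lost when any of the other 6 was. By group, without D10 of experiment 1, the D10 change of DCN was -2.78, which rests on the single D10 library of experiment 2. Whether fewer DCN transcripts per cell or fewer cells rich in DCN lie behind a lower level cannot be told apart in bulk RNA.

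LUM, which carries keratan sulfate and binds type I collagen, was lower on every day and lowest at D7. It stood at 243 CPM at D0, 158 (D4), 147 (D7) and 167 (D10) in experiment 1. In experiment 2 it stood at 444, 194, 166 and 258 CPM. The D4 and D7 libraries were all below both D0 libraries, whereas D10 of experiment 2 lay above D0 of experiment 1. The fitted log2 fold change was -0.97 ± 0.35 (D4), -1.13 ± 0.35 (D7) and -0.69 ± 0.35 (D10), with adjusted p of 1, 0.693 and 0.744. In the paired fit LUM passed the threshold at D7 (-1.08 ± 0.19, adjusted p = 0.0408) and in the test for any difference among the 4 groups (adjusted p = 0.0469), but not at D4 (0.121) or D10 (0.0941). Without D10 of experiment 2, the paired fit called LUM at D4 (-0.92, adjusted p = 0.00622) and D7 (-1.08, adjusted p = 0.00113). The D7 call was kept when either D10 library was left out and lost when any of the other 6 was.

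BGN, the close relative of DCN, had smaller fitted differences from D0. Its level was 162 CPM at D0, 109 (D4), 96.6 (D7) and 111 (D10) in experiment 1, and 149, 133, 173 and 107 CPM in experiment 2. The D7 library of experiment 2 was the highest of all 8, so that D7 overlapped with D0, while all D4 and D10 libraries were below both D0 libraries. The fitted log2 fold change was -0.37 ± 0.29 (D4), -0.21 ± 0.29 (D7) and -0.51 ± 0.29 (D10), and the lowest adjusted p was 0.857 by group and 0.272 in the paired fit, both at D10. BGN had 1406 and 1351 counts in the D10 libraries of experiments 1 and 2, where DCN had 27005 and 7254.

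PODN, a SLRP described in kidney podocytes and smooth muscle, was at D10 far lower in experiment 2 than in experiment 1, as DCN was. It stood at 147 CPM at D0, 87.7 (D4), 70.9 (D7) and 90.3 (D10) in experiment 1, and at 98.8, 73.6, 107 and 17.6 CPM in experiment 2. The D7 library of experiment 2 lay above D0 of the same experiment, and the D10 library of experiment 2 was the lowest of all 8. The fitted log2 fold change was -0.61 ± 0.63 (D4), -0.46 ± 0.63 (D7) and -1.19 ± 0.64 (D10), with adjusted p of 0.815 at D10 by group and 0.230 in the paired fit. Without D10 of experiment 2 the group fit gave -0.44 at D10, and without D10 of experiment 1 it gave -2.78. Each of these values rests on 1 D10 library.

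The remaining members were rare. FMOD, which like LUM binds type I collagen, stood between 1.16 and 5.96 CPM (15 to 80 counts) and was higher in experiment 2 than in experiment 1 on every day. Its fitted log2 fold change was between -0.17 and 0.09 against D0, with an SE of 0.72, so that a 2-fold change lay within 2 SE. PRELP had between 4 and 18 counts per library, with 14 and 12 at D0 and 9 and 4 at D10. Its fitted log2 fold change was 0.25 ± 0.50 at D4 and D7 and -0.98 ± 0.54 at D10 (adjusted p = 0.834). ASPN, which binds TGF-β, had 9 counts in D4 of experiment 2, 4 in D7 of the same experiment, 1 and 2 counts at D0, and 0 or 1 in the other libraries. It was thus at or under the floor of 3 counts in 6 of 8 libraries.

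**Figure D1:**
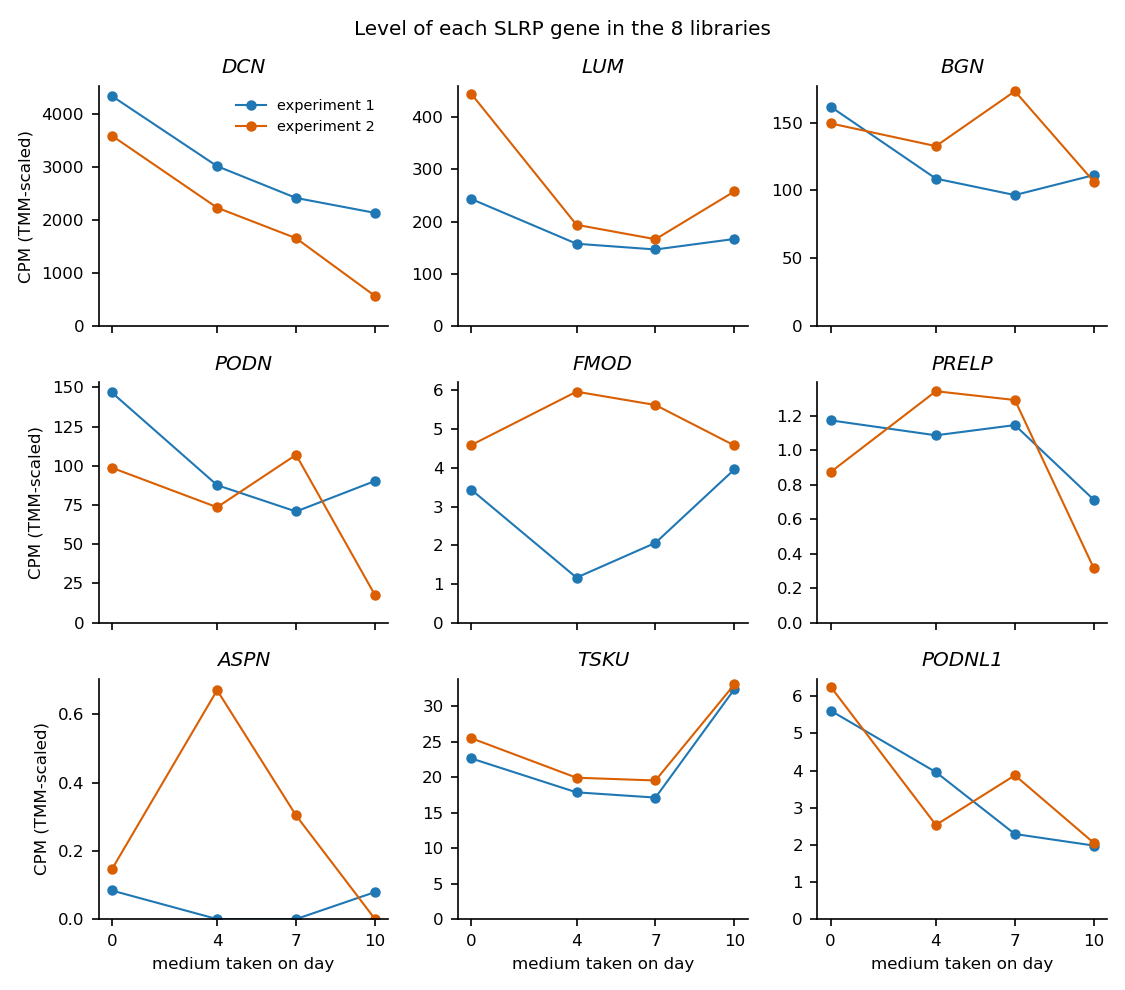
Level of each SLRP gene in CPM (y axis, linear, starting at 0) against the day on which the donor medium was taken (x axis), with 1 point per library and 1 line per experiment. DCN goes from 4340 to 2138 CPM in experiment 1 and from 3593 to 572 CPM in experiment 2, while TSKU is highest at D10 in both.

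Counted over the 6 members tested, 4 were lower than D0 in both experiments at D4, 2 at D7 and 5 at D10, and 0 were higher in both on any day. Over all 13798 tested genes, 28.9% were lower in both experiments at D4, 31% at D7 and 32.3% at D10. The median log2 fold change of the 6 was -0.48 (D4), -0.34 (D7) and -0.84 (D10), against 0.01, -0.00041 and 0.0037 over all tested genes. The exception at D10 was FMOD, with log2 changes of 0.20 and -0.0033.

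By the group fit with edgeR, 0 of the 6 members were called at an adjusted p under 0.05 on any day, against a background of 0%, 0% and 0.29% of genes on days 4, 7 and 10. At an unadjusted p under 0.05, 1 of 6 passed on each day, LUM at D4 and D7 and DCN at D10, against 2.96%, 4.34% and 7.94% of all genes. The paired fit called 0, 1 and 1 members, against 0.275%, 1.25% and 4.99% of genes, and DESeq2 called 0 on each day, against 0.287%, 0.785% and 2.17%. For D10 against D4, the group fit, the paired fit and DESeq2 each called 0 members and 0 had an unadjusted p under 0.05, with backgrounds of 0.00725%, 2.55%, 0.938% and 5.7% in this order. In the test for any difference among the 4 groups, the group fit called 0 members (background 0.087%), 1 had an unadjusted p under 0.05 (5.22%), the paired fit called 1 (3.33%) and DESeq2 0 (2.09%). Without D10 of experiment 2 the paired fit called 1, 2 and 1 of the 6 at D4, D7 and D10, against 3.18%, 5.49% and 6.32% of 14168 genes. The comparisons against D0 share the same D0 libraries.

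**Figure D2:**
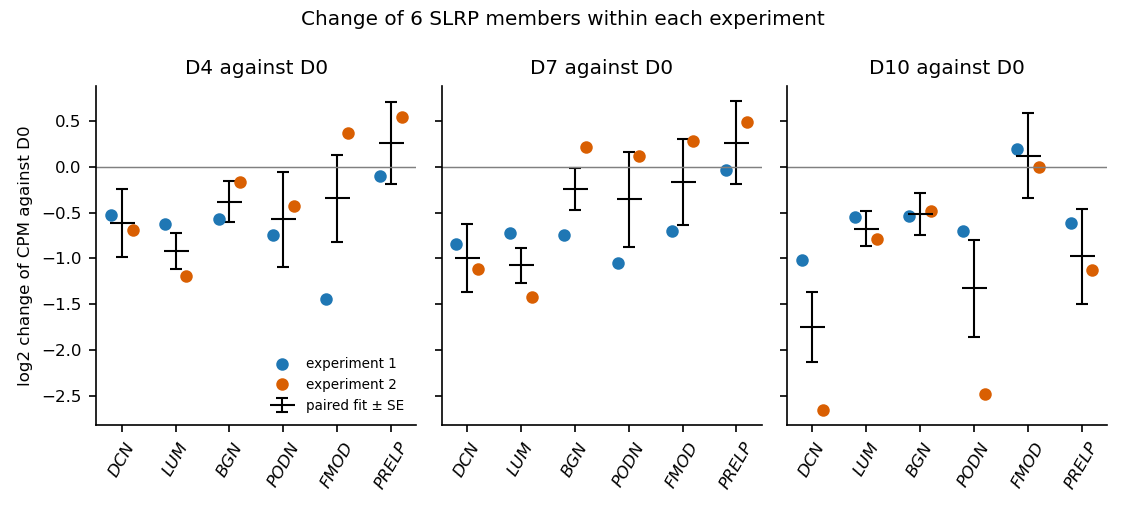
Log2 change of CPM against the D0 library of the same experiment (y axis) for the 6 tested members (x axis) on each day, with 1 point per experiment and the paired edgeR estimate ± SE as a black bar. At D10 the points of DCN lie at -1.02 and -2.65 and those of PODN at -0.70 and -2.48, while those of BGN lie together at -0.54 and -0.49.

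The share of DCN in the members' counts was lower at D10 than at D0 in both experiments. Together the 7 members took 0.464% and 0.447% of all counts at D0 and 0.238% and 0.104% at D10 in experiments 1 and 2. DCN made up 88.6% and 83.7% of these counts at D0 and 85.1% and 59.7% at D10. LUM made up 4.96% and 10.3% at D0 and 6.64% and 26.9% at D10. DCN counts per BGN count were 26.9, 27.8, 25.0 and 19.2 at D0, D4, D7 and D10 in experiment 1, and 24.1, 16.9, 9.59 and 5.37 in experiment 2. The D10 ratio was thus the lowest of its experiment in both, although the ratio at D4 was above that at D0 in experiment 1. With 2 libraries against 2, an exact two-sided permutation test cannot give a p below 0.333, and none was run on these ratios. The ratio of LUM to BGN was between 1.45 and 1.52 in the 4 libraries of experiment 1 and between 0.961 and 2.97 in those of experiment 2.

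**Figure D3:**
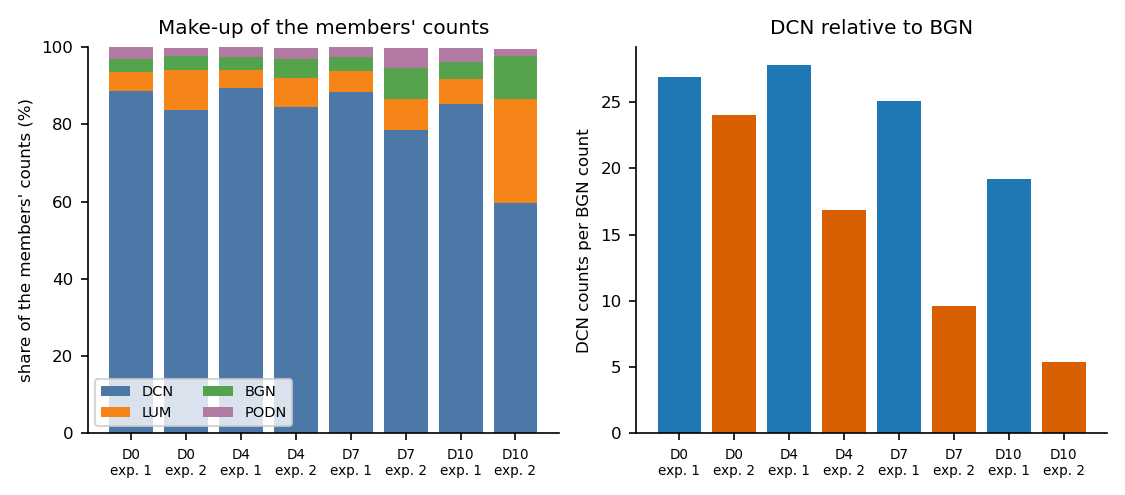
Left, share of DCN, LUM, BGN and PODN in the summed counts of the 7 members (y axis, %) in each library (x axis); right, DCN counts per BGN count in the same libraries, blue for experiment 1 and orange for experiment 2. The DCN share is lowest, 59.7%, in D10 of experiment 2, where the ratio to BGN is 5.37.

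Members were compared over the 8 libraries by log2 CPM centred within each experiment, as a description only, since the libraries share the experiment, scaling and control. DCN correlated with PODN at r = 0.88, with PRELP at 0.74 and with BGN at 0.66, and with its neighbour LUM at 0.42. PODN also correlated with BGN at 0.84 and with PRELP at 0.82. LUM correlated with PODN at 0.13 and with PRELP at -0.27, and FMOD with its neighbour PRELP at 0.02. DCN (572 CPM), PODN (17.6 CPM) and PRELP (4 counts) each had their lowest value of the 8 libraries in D10 of experiment 2. How far their correlations rest on that library was not tested. PRELP had only 4 to 18 counts per library. Over all tested genes, PRCP (r = 0.995) and MXRA7 (0.994) were most like DCN, SLC40A1 (0.994) and NQO1 (0.975) most like LUM, and SMAD6 (0.990) and FMO5 (0.988) most like PODN. AP001471.1 (0.990) and CHAF1B (0.980) were most like BGN, MAN1A1 (0.970) and CLSTN1 (0.965) most like FMOD, and TMEM35A (0.996) and LZTS1 (0.994) most like PRELP. These genes were picked as the highest over all tested genes, so a high r was built into the choice. AP001471.1 and FMO5 were rare, at a mean of 0.59 and 0.74 CPM. Without centring, 4 of these 12 pairs were found again.

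Of the 9 other SLRP genes, 5 had a row and 2 were tested. TSKU (tsukushi), which binds BMP, was not called against D0 on any day. It stood at 22.6, 17.8, 17.1 and 32.4 CPM at D0, D4, D7 and D10 in experiment 1, and at 25.5, 19.9, 19.5 and 33.0 CPM in experiment 2. The D4, D7 and D10 libraries did not overlap with D0, and the 2 experiments ran nearly in parallel. Against D0, the adjusted p was 1, 1 and 0.683 at D4, D7 and D10 by group and 0.589, 0.362 and 0.139 in the paired fit. In the paired fit, D10 exceeded D4 by 0.80 ± 0.15 on the log2 scale (adjusted p = 0.0306) and the 4 groups differed (adjusted p = 0.0360), whereas the group fit gave adjusted p of 0.400 and 0.463 and DESeq2 of 0.272 and 0.262. PODNL1, the closest relative of PODN, stood at 5.61 and 6.26 CPM at D0 and at 1.98 and 2.05 CPM at D10. Its log2 fold change at D10 was -1.55 ± 0.40 by group (adjusted p = 0.194) and -1.55 ± 0.36 in the paired fit (adjusted p = 0.0450), a call that was lost without D10 of experiment 2. ECM2 had 7 and 9 counts at D0, 1 and 9 at D4, and between 1 and 3 in D7 and D10. OMD and CHAD had at most 1 count in any library.

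Of the enzymes that build chondroitin and dermatan sulfate chains, 20 of 22 were tested, and their median log2 fold change at D10 was 0.12. The group fit called 0 of them, with 4 at an unadjusted p under 0.05 at D10 (background 7.94%). The paired fit called 3 at D10, all higher (background 4.99%), and also 3 without D10 of experiment 2 (6.32%). CHST11, which sulfates chondroitin, stood at 1.26 and 2.04 CPM at D0 and at 7.60 and 6.39 CPM at D10, and rose by 2.10 ± 0.32 on the log2 scale in the paired fit (adjusted p = 0.00750). CSGALNACT1 (1.06 ± 0.19, adjusted p = 0.0178) and CSGALNACT2 (0.88 ± 0.17, adjusted p = 0.0242), which start the chain, rose as well. The most abundant genes of the list, CHPF and CHPF2, which extend the chain, had fitted log2 fold changes of -0.09 ± 0.48 and 0.15 ± 0.38 at D10.

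Of the enzymes and transporters listed for keratan sulfate, 8 of 13 were tested, 0 were called by the group fit, with 1 at an unadjusted p under 0.05 at D10 (background 7.94%), and the paired fit called 1 higher and 1 lower at D10 (4.99%). PAPSS2, which makes the sulfate donor used for all sulfated chains and was the most abundant of the list, fell by 0.97 ± 0.22 (adjusted p = 0.0373), from 285 and 214 CPM at D0 to 183 and 83.4 at D10. This call was lost without D10 of experiment 2 (adjusted p = 0.0565). SLC35D1, a Golgi and endoplasmic reticulum carrier of the sugars used for chondroitin sulfate, rose by 0.84 ± 0.18 (adjusted p = 0.0330). B4GALT1, which adds galactose, stood at 145 and 117 CPM at D0 and 232 and 125 CPM at D10. Its log2 fold change in the paired fit was 0.40 ± 0.18 (adjusted p = 0.284), and 0.66 without D10 of experiment 2, which leaves D10 with 1 library.

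Among ligands and receptors that SLRPs bind, 18 of 25 were tested, with 7 at an unadjusted p under 0.05 at D10 (background 7.94%). BMP2 was the one gene called by the group fit, with a log2 fold change of 4.11 ± 0.52 at D10 (adjusted p = 0.0379). It rose from 15.0 and 10.0 CPM at D0 to 28.4 and 40.7 with D4 medium, 50.3 and 86.3 with D7 medium and 126 and 307 with D10 medium, with no overlap between successive groups. The paired fit called 2 higher (BMP2 and ITGA2) and 2 lower (TGFB2 and BMP4) at D7 and at D10, against 1.25% and 4.99% of all genes. TGFB2, one of the ligands that DCN, BGN and FMOD bind, fell by 1.66 ± 0.20 at D10 (adjusted p = 0.00333), and BMP4 fell by 1.66 ± 0.23 (adjusted p = 0.00514). ITGA2, a subunit of a collagen receptor that DCN engages, rose by 1.99 ± 0.28 (adjusted p = 0.00573). CD44 and ITGB1, the most abundant of the list, had log2 fold changes of -0.31 ± 0.37 and 0.10 ± 0.40 by group at D10.

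Of the proteases known to cleave SLRPs, 8 of 15 were tested, and the group fit called 0 at D10 (background 0.29%), with 2 at an unadjusted p under 0.05 (7.94%). MMP3 (stromelysin-1), which cuts decorin, stood at 19.5 and 4.29 CPM at D0 and at 254 and 3327 CPM at D10 in experiments 1 and 2. The paired fit gave a log2 fold change of 7.52 ± 1.43 (adjusted p = 0.0201), and 3.96 without D10 of experiment 2, which leaves D10 with 1 library. ADAMTS1 fell at D10 by 0.94 ± 0.17 (adjusted p = 0.0157) and had already been lower by 1.39 ± 0.17 on the log2 scale at D4 (adjusted p = 0.0197). MMP2 and MMP14, the most abundant proteases, had fitted log2 fold changes of 0.05 ± 0.30 and 0.53 ± 0.25 at D10 by group.

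The collagens listed were fibril-forming ones together with COL6A1, COL6A2, COL6A3, COL12A1 and COL14A1. Of these collagens, 12 of 13 were tested, and 7 were lower in both experiments at D10 (background 32.3%). Their median log2 fold change was -0.65. The group fit called 0, with 1 at an unadjusted p under 0.05 (7.94%). The paired fit called 1 (4.99%), COL11A1, a minor fibril collagen that went from 3.44 and 17.7 CPM at D0 to 1.03 and 1.18 CPM at D10 (-2.99 ± 0.53, adjusted p = 0.0150). Without D10 of experiment 2, which leaves D10 with 1 library, its change was -1.93. COL1A1 and COL1A2, the most abundant, were not called (-1.11 ± 0.77 and -0.77 ± 0.61 by group). COL1A2 stood at 14774 and 11217 CPM at D0 and at 12386 and 2862 CPM at D10, so that, as with DCN and PODN, most of its D10 difference came from experiment 2. DCN counts per COL1A1 count were 0.299 and 0.413 at D0 and 0.227 and 0.442 at D10.

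**Figure D4:**
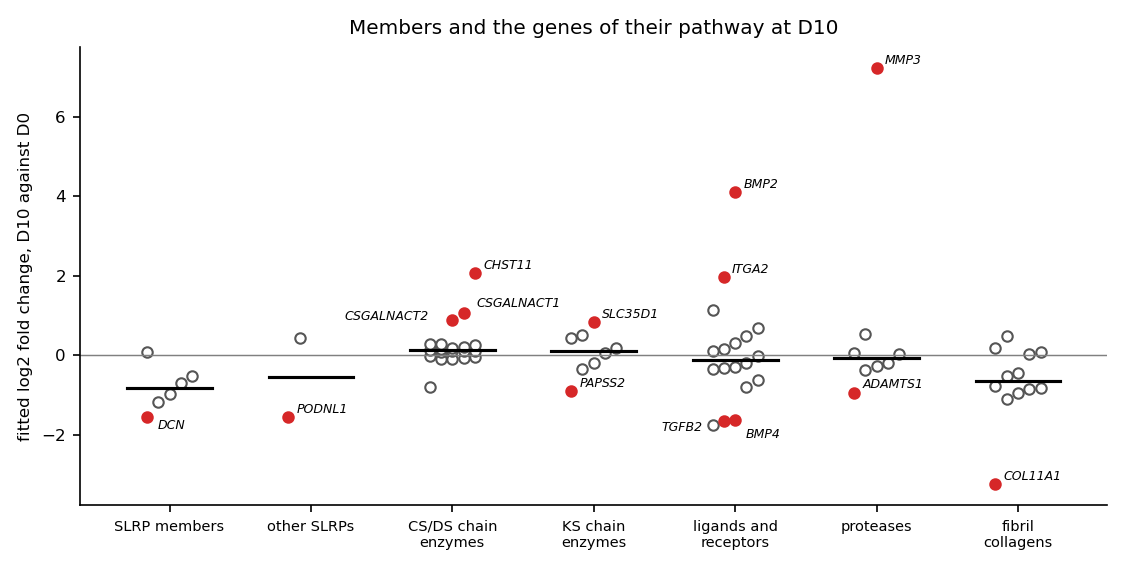
Fitted log2 fold change at D10 against D0 by the group fit (y axis) for each tested gene of the SLRP members and 6 lists of related genes (x axis), with 1 circle per gene and a bar at the median of each list. Filled red circles are genes called by the paired fit, among them DCN at -1.55, BMP2 at 4.11 and MMP3 at 7.24. The list labelled fibril collagens also holds COL6A1, COL6A2, COL6A3, COL12A1 and COL14A1.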

How the data were processed

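IMR90 recipient fibroblasts of 4 groups (D0, D4, D7, D10) were compared, with 2 libraries each, grouped by their titles. The table that the authors deposited holds raw counts per gene, and their submitters' processing notes name STAR 2.5, DESeq2 and GRCh38. The notes do not say whether counting used strand. The 8 columns of normalized values beside the counts were not used. Of the identifiers, 99.61% are in GENCODE 29, which gave positions and exon lengths.

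Genes were filtered with filterByExpr and scaled by TMM, and the quasi-likelihood model of edgeR 4.0.16 (glmQLFTest) in R 4.3.3 was fitted by group to all 8 libraries, with Benjamini-Hochberg adjustment over 13798 genes and calls at 0.05. The paired fit added the experiment as a replicate block, since the methods describe 2 independent experiments. DESeq2 1.42.0, other filters and scaling, and leaving out libraries were alternatives. Log2 CPM used a prior count of 2. Replicates were not copies, with a chi-square per gene of at least 40.9 in each group. Depth limits the precision of FMOD, PRELP and ASPN, which had few counts.

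Members and lists were chosen with earlier results of these data known. Named genes are every member and other SLRP gene, in each other list the 2 with the highest mean CPM, those called by the group fit and the one with the largest paired call at D10, and the 2 genes most like each member. The other called genes of a list (CSGALNACT1, CSGALNACT2, SLC35D1, TGFB2, BMP4, ITGA2, ADAMTS1) were named after their values were seen, as were the promoter and coding stretches shown. On simulated counts drawn from the paired fit, with 200 genes changed at D10, 13707 were tested by edgeR. The group fit called 2% of those changed by 1 on the log2 scale and 62% of those changed by 2. DESeq2 called 22% and 92%. The paired fit called 82% and 100%, with 17 unchanged genes among 207 calls. All these rates rest on counts drawn from the paired model, in which a gene differs from D0 alike in both experiments. Recovery of genes that differ unequally, as DCN did at D10 (-1.02 and -2.65 on the log2 scale), was not tested.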

Additional observations from a re-analysis of the deposited data

Results flagged for a closer look

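TSKU was the single gene among those named whose libraries moved one way at D4 and D7 and the opposite way at D10 in both experiments. Its fitted log2 fold change was -0.35 (D4), -0.39 (D7) and 0.44 (D10) by the group fit, with adjusted p of 1, 1 and 0.683 (0.589, 0.362 and 0.139 in the paired fit). Within experiments 1 and 2 it was -0.34 and -0.35 with D4 medium, -0.40 and -0.38 with D7 medium and 0.51 and 0.37 with D10 medium. The 3 comparisons share the D0 libraries. The difference between D10 and D4, which does not use them, was 0.79 ± 0.21 by group (adjusted p = 0.400, edgeR) and 0.80 ± 0.15 in the paired fit (adjusted p = 0.0306), and that between D10 and D7 was not tested. With 2 libraries per group, a single library far from the others could not be assessed by a test within its group.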

How the results depend on the processing

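The number of genes called depended strongly on the fit, and less so the direction of the members. By group, edgeR called 0, 0, 40, 1 and 12 genes at D4, D7, D10, for D10 against D4 and for any difference. DESeq2 called 44, 112, 379, 149 and 332, no filter on low counts gave 21, 93, 371, 147 and 318, and the replicate block gave 38, 172, 688, 352 and 460. At least 10 counts in every library gave 20 genes at D10, an adjusted p under 0.01 gave 2 at D10 and 1 for any difference, the compared groups only gave 0 at D10 and 6 for D10 against D4, and DESeq2's size factors gave 6 for D10 against D4. The block called 1 member at D7 (LUM, against 1.25% of all genes), 1 at D10 (DCN, 4.99%) and 1 for any difference (LUM, 3.33%). By the group fit without D10 of experiment 1, which leaves D10 with 1 library, DCN and PODN each changed by -2.78 at D10. The block with the compared groups only, chosen after seeing the data and with 1 residual degree of freedom, gave 971, 580, 716 and 340 genes and called 3 members at D4 (DCN, LUM, PODN), 2 at D7 (DCN, LUM) and 0 at D10.

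Leaving out 1 library at a time gave 0 genes at D4 and D7, 0 to 155 at D10, 0 to 83 for D10 against D4 and 1 to 74 for any difference by group. Leaving out libraries in the fit with the block, a combination added after seeing the data, gave 0 to 491, 0 to 819, 113 to 1906, 23 to 1926 and 133 to 2123. The highest counts were without D10 of experiment 1. The number of members called varied as well, and it too reached its highest without D10 of experiment 1. When a library was left out, its group kept 1 library, assumed to vary like the others. Of the members' log2 fold changes under alternatives, 504 kept direction and side of the threshold, 21 came to pass it and 23 reversed, all when a library was left out. The reversals were of FMOD at D4 (-1.78 to 0.57), D7 (-0.96 to 0.49), D10 (-0.39 to 0.70) and D10 against D4 (-0.47 to 1.86), PRELP at D4 (-0.0703 to 0.56), BGN at D7 (-0.68 to 0.16) and D10 against D4 (-0.33 to 0.0581), PODN at D7 (-1.29 to 0.32) and D10 against D4 (-2.19 to 0.16), and LUM for D10 against D4 (-0.0757 to 0.56). The cause was not tested. DCN kept its direction in every comparison under all alternatives run. With the longest transcript as length, the log2 level per kilobase at D0 moved from 8.26 to 9.11 for DCN and from 4.62 to 5.20 for PODN, and with a prior count of 0.5 that of ASPN moved from -3.21 to -4.04. Depth limits FMOD, PRELP and ASPN, which had at most 80 counts per library.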
